A study of Mus musculus with 4 samples.

Results

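Myh11, Acta2 and Des are 3 genes used as markers of smooth muscle, and their regions were examined in lists of bound intervals from whole mouse uterus. The members were all intervals of the 4 deposited lists that overlapped chromosome 16, 14170000 to 14300000 (Myh11), chromosome 19, 34290000 to 34350000 (Acta2), or chromosome 1, 75340000 to 75385000 (Des). These were 14 of 35977 intervals. RNA polymerase II (POL2) had 7 of its 9972 intervals at postnatal day 12 (PD12) and 5 of its 14818 in the adult. FOXA2 had none of its 814 intervals at PD12 and 2 of its 10373 in the adult. The regions were set on mm9 positions. The files name no build, and an annotation of mm9 was not used here, so the exon, intron or untranslated part at an interval is not stated, nor which gene of a region a domain lies in.

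The series profiled 2 antibodies by chromatin immunoprecipitation and sequencing in female mouse uterus at 2 stages, the uterus of postnatal day 12 and the adult uterus of pseudopregnancy, the state that follows a sterile mating. The adult label names days 2.5 and 3.5 of pseudopregnancy on a single library. Not given in the sources used here are the way those days were combined, the strain, any allele and the number of animals. With 1 library for each of the 4 combinations, no value has a replicate check, and the stages were compared without a test. The lists hold positions alone, so read depth is unknown.

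Smooth muscle of the uterus forms the myometrium, the muscular wall that lies around the stroma and its glands and is laid down around and after birth. Myh11 encodes the heavy chain of smooth muscle myosin, the motor that pulls on actin filaments. Acta2 encodes the smooth muscle alpha-actin of those filaments, which vascular smooth muscle, pericytes and myofibroblasts also make. Des encodes desmin, an intermediate filament protein of muscle cells that ties the contractile bundles to each other and to the cell membrane. The POL2 antibody recognises polymerase with phosphate on serine 2 of the C-terminal repeat, a mark of polymerase that is elongating through a gene, so long intervals (called domains here) lie over transcribed stretches. FOXA2 is a forkhead transcription factor known in the uterus from the glandular epithelium.

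The promoters of smooth muscle genes are known for the CArG box, CC and GG around a run of A and T bases, to which serum response factor binds. RefSeq promoter sequences on GRCm38.p6 were at hand for 2 of the 3 genes, Acta2 and Des, and the 250 bases before the start site are printed 5′ to 3′ because both genes lay in regions with POL2 at both stages and an adult FOXA2 interval. Acta2 lies on the minus strand (chr19:34255374-34255623) and Des on the plus strand (chr1:75360042-75360291), in positions of that build and not of the files. Capitals mark CArG boxes with at most 1 base other than A or T inside, a looser form chosen after the sequences were seen.
Acta2: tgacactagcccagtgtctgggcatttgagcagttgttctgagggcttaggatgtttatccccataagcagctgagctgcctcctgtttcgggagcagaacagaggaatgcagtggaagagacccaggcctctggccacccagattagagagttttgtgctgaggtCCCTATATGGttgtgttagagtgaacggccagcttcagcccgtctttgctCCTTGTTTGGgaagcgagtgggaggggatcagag
Des: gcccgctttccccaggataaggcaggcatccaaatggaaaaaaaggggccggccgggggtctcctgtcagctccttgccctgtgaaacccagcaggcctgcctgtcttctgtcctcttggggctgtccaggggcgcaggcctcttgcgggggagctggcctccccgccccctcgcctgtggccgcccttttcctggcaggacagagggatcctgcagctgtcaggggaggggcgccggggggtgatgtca

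The Acta2 promoter held 2 such boxes, CCCTATATGG from position -84 to -75 and CCTTGTTTGG from -34 to -25, counted back from the start site. Each has 1 base other than A or T inside. At least 1 such box was present in 8.59% of 32851 mouse promoters of the same length, and 2 or more in 0.670%. The Des promoter held none, which says only that these letters are not in this window. The strict CArG box was in neither promoter and in 1.47% of all promoters. The forkhead words TGTTTAC and TATTTAC, searched on both strands, were in neither, and 1 or the other was in 5.76% of all promoters. Because the builds differ, the promoters were not placed on the POL2 domains.

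POL2 covered all 3 regions at both stages. In the Myh11 and Acta2 regions nearly the same bases were covered at PD12 and in the adult, with 106.0 and 110.2 kb in the Myh11 region and 18.6 and 20 kb in the Acta2 region. The Des region had 7.2 kb covered at PD12 and 22.4 kb in the adult. The ratios of adult to PD12 cover were 1.04 for Myh11, 1.08 for Acta2 and 3.11 for Des, while over all chromosomes it was 1.35 (PD12 70.4 Mb, adult 95.2 Mb). Myh11 and Acta2 lay below the ratio of the whole lists and Des above it. The ratio also depends on how much of a region was covered at PD12, which is set out for windows of the same lengths. With 106.0 kb of its 130 kb covered at PD12, the Myh11 region could not have reached 1.35 at any adult cover.

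**Figure D1:**
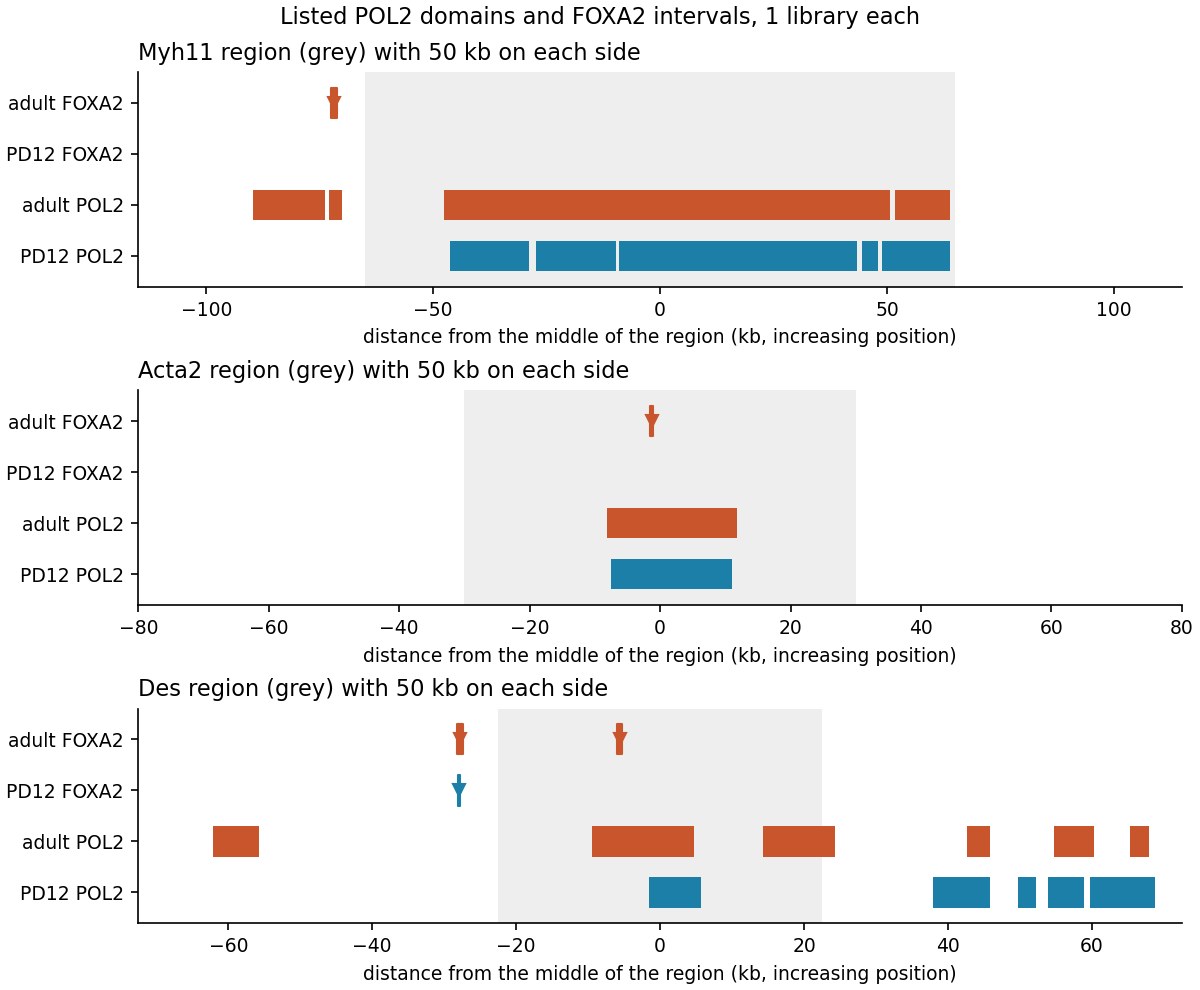
Listed intervals along each region (grey) and 50 kb on each side, against distance from the middle of the region in kb, with 1 row for each antibody and stage. Bars are listed intervals and triangles mark the middle of FOXA2 intervals. Within the grey regions, the outer ends of the POL2 bars at Myh11 and Acta2 are nearly the same at both stages. At Des the adult POL2 bar starts 8.0 kb below the PD12 bar, and a further adult bar has no PD12 partner. Adult POL2 bars without a PD12 partner also lie in the 50 kb below the Myh11 region.

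To read these ratios, windows of the length of each region were laid end to end along every chromosome, and those with POL2 at either stage were kept. An adult cover of at least 1.5 times that at PD12 was found in 48.2% of 6262 windows of 130 kb, 49.0% of 9256 windows of 60 kb and 49.0% of 10640 windows of 45 kb. PD12 cover of at least 1.5 times adult cover was found in 15.8%, 17.2% and 17.8% of them. Windows without any PD12 POL2 pass the adult fold by definition, and they were 22.3%, 28.2% and 29.6% of the windows. Those without adult POL2 pass the PD12 fold likewise, and they were 6.85%, 8.10% and 8.61%. Of the 3 regions, 1 (Des) passed the adult fold and none passed the PD12 fold. The Myh11 region could not pass the adult fold, since 81.5% of it was covered at PD12. The background near 1 window in 2 counts windows without PD12 POL2, whereas all 3 regions had it, so it is higher than for windows like them. A count of 1 region is in any case not a result about smooth muscle genes.

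The adult excess was smaller in windows selected for long PD12 cover, a comparison chosen after the data were seen. The ratio divides by PD12 cover, so this selection lowers the ratio by itself. Windows with POL2 at both stages and at least 90% of the PD12 cover of a region were taken for each length. For Myh11 there were 13 such windows, the Myh11 region among them, with a median ratio of 0.927 (interquartile range 0.811 to 1.04). None (0.0%) passed the adult fold of 1.5, and none could, because that fold would need an adult cover longer than the window of 130 kb. The Myh11 ratio of 1.04 is the upper quartile of these windows, so its place below the whole lists is not particular to it. For Acta2 the 1252 windows had a median ratio of 1.0 (0.829 to 1.19), a range that holds its ratio of 1.08, and 7.83% passed the fold. For Des the 3764 windows had a median of 1.03 (0.788 to 1.34), below its ratio of 3.11, and 18.6% passed. At these lengths too, windows filled far enough at PD12 cannot reach the fold. The shares of 7.83% and 18.6% are therefore not neutral backgrounds for Acta2 and Des. A list holds no heights, so a change in polymerase density within bases covered at both stages would not appear in any of these values. In whole uterus, more cells of a type and more polymerase per cell cannot be told apart either.

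**Figure D2:**
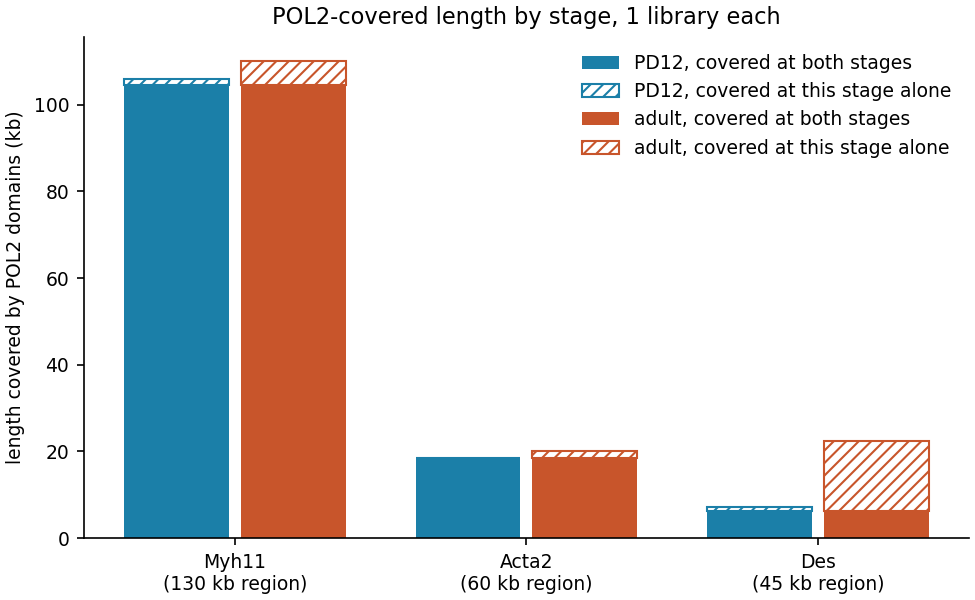
Length covered by POL2 domains in kb for each region, at PD12 and in the adult, with 1 library per bar and no error bar. Filled parts are bases covered at both stages and hatched parts are bases covered at that stage alone. The hatched adult part is 16.2 kb at Des, against 5.6 kb at Myh11 and 1.4 kb at Acta2.

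The Myh11 region, the longest of the 3, had the longest POL2 cover at either stage. Gene lengths were not used, so the length of cover is not a measure of activity. At PD12, 5 domains covered 81.5% of the region, and in the adult 2 domains covered 84.8%. The PD12 domains measured 17.4, 17.6, 52.4, 3.4 and 15.2 kb in order of position. The one of 52.4 kb, at 14226000 to 14278399, was number 20 by width among the 9972 of its list. The adult domains were one of 98.2 kb at 14187400 to 14285599, number 2 by width among 14818, and one of 12.0 kb at 14286800 to 14298799. Gaps between the PD12 domains were 800 to 1400 bp, where 800 bp is the smallest gap in either POL2 list.

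The breaks in the Myh11 cover differed between the stages, but the outer ends did not move far. Each of the 4 PD12 gaps was covered in full by the adult domain. The single adult gap of 1.2 kb, at 14285600 to 14286799, was covered in full at PD12. From the first to the last covered base the cover spanned 110.2 kb at PD12 and 111.4 kb in the adult, and between the first and last covered base of either stage no base was bare at both. The adult cover began 1.4 kb below the PD12 cover and ended 0.2 kb before it. Of the bases covered at PD12, 98.7% were covered in the adult, and of those covered in the adult 94.9% were covered at PD12. The whole lists gave 72.0% and 53.2%, but these are not a like comparison. Cover that fills 81.5% and 84.8% of a region must exceed both whole-list shares wherever its domains lie.

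Few windows of 130 kb were covered as fully as the Myh11 region. PD12 cover was at least as long in 5 of the 6262 windows of 130 kb (0.0798%), adult cover in 9 (0.144%) and both in 2. The Myh11 region itself is 1 of these windows in each count. Its window frames its whole stretch, whereas the edges of other windows can cut a long stretch, so the counts may be too low. The median over windows with POL2 was 6.6 kb at PD12 and 9.6 kb in the adult. Joined across gaps of up to 5 kb, the domains of both stages made 11353 stretches, in which that of Myh11 was number 30 by length with 111.6 kb. Among the 197 stretches of 55.8 to 223.2 kb, which is 0.5 to 2 times that length, the median ratio of adult to PD12 cover was 1.11 (interquartile range 0.959 to 1.72). In 31.5% of them the adult cover was at least 1.5 times that at PD12, in 6.09% the reverse, and in 26.4% (95% interval 20.4 to 33.1) the cover of the stages lay within 1.1 times of each other, as at Myh11.

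Outside its long stretch the surroundings of Myh11 had more adult cover. In the 50 kb below the region the adult list had 18.8 kb covered and the PD12 list none. In the 50 kb above, neither had any. Within 200 kb on both sides the cover was 12.6 kb at PD12 and 42.4 kb in the adult. In the GRCm38 gene order the coding genes beside Myh11 are Nde1 and Cep20. Nearest to the region among the domains left out were an adult one of 2.8 kb at 14162000 to 14164799, 5.2 kb below it, and a PD12 one of 4.4 kb, 59.6 kb below it.

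**Figure D3:**
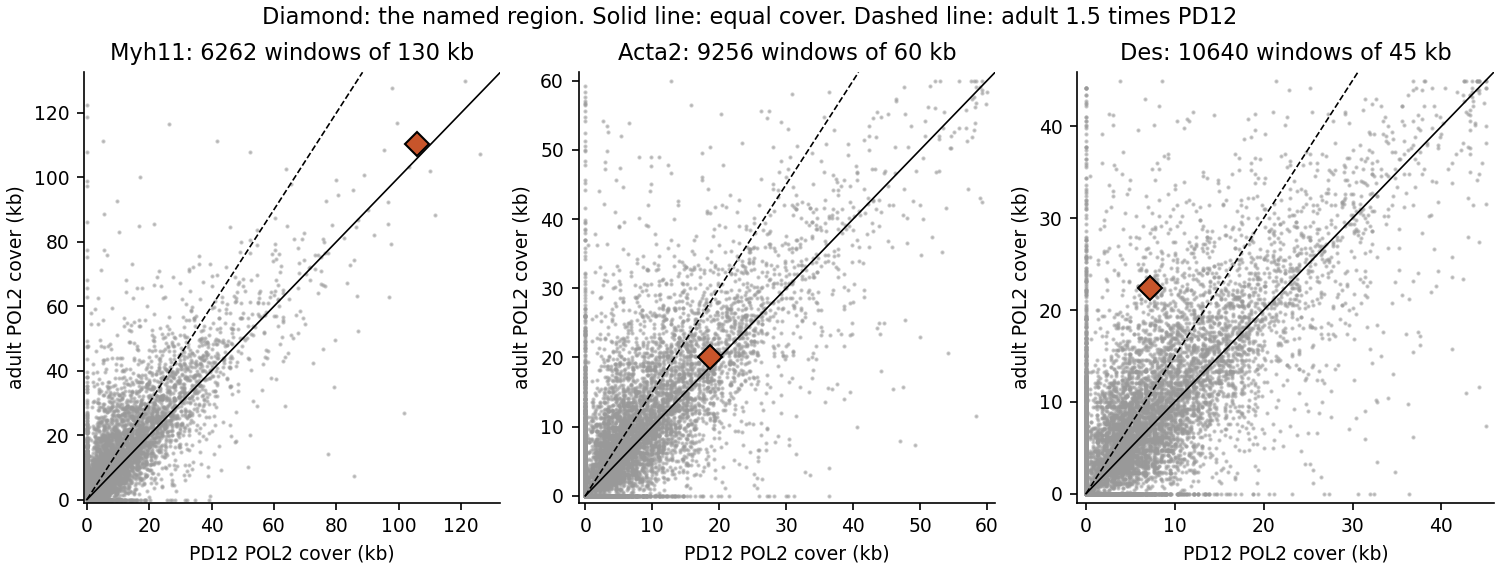
Adult against PD12 POL2 cover in kb for windows with POL2 at either stage, in windows of 130, 60 and 45 kb (grey points), with the named region as a diamond. The solid line is equal cover and the dashed line an adult cover of 1.5 times PD12. Myh11 and Acta2 lie near the solid line, Myh11 at the far end of it, and Des lies above the dashed line.

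Acta2 had a single domain at each stage with nearly equal ends. At PD12 it ran from 34312400 to 34330999 (18.6 kb), and in the adult from 34311800 to 34331799 (20 kb). The adult domain contained the whole PD12 domain and reached 0.6 kb beyond its lower end and 0.8 kb beyond its upper end. It was number 473 by width in the adult list (3.19% of domains were as wide or wider), and the PD12 domain was number 441 (4.42%). Among windows of 60 kb, 11.4% had at least as much PD12 cover and 15.6% at least as much adult cover.

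The Acta2 domain stood far from other POL2 at both stages. No POL2 was listed within 200 kb of the region at PD12 or in the adult. After joining gaps of up to 5 kb, the nearest other POL2 stretch was 1404.4 kb away at PD12 and 383.4 kb away in the adult. A distance as large was found for 0.578% of the 7607 PD12 stretches and 2.99% of the 10620 adult stretches, and the medians were 27.6 and 19.4 kb. For Myh11 the distances were 78.4 kb at PD12 and 22.6 kb in the adult, and for Des 32.2 and 9.6 kb. The coding genes on either side of Acta2 in the GRCm38 order are Stambpl1 and Fas, and the 60 kb region held no POL2 outside the single domain.

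Des was the region in which the stages differed. At PD12 a single domain of 7.2 kb lay at 75361000 to 75368199, a common width (35.3% of PD12 domains were as wide or wider). In the adult a domain of 14.2 kb lay at 75353000 to 75367199. It began 8.0 kb below the PD12 domain and ended 1.0 kb before it, and 6.2 kb was covered at both stages. The added adult cover is at lower positions, the upstream side of Des if its orientation in the files' build is the plus strand it has in GRCm38.

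A second adult domain of 10 kb, at 75376800 to 75386799, had no overlap with PD12 cover and ran across the upper end of the Des region. The coding gene that follows Des in the GRCm38 order is Speg, which encodes a muscle kinase, and Dnpep comes before it. Which of these genes the second domain belongs to was not determined. Without it, in the central 50% of the region, the cover was 7.2 kb at PD12 and 14.2 kb in the adult, a ratio of 1.97. These 2 domains made a joined stretch of 15.2 kb. Of 4238 stretches of 7.6 to 30.4 kb, 40.3% (38.8 to 41.8) had adult cover at least 1.5 times that at PD12. That share counts stretches without PD12 POL2. Among those with it, the upper quartile of the ratio was 1.62. A ratio as high as the 3.11 of the full region was seen in 8.15% of the windows of 45 kb with POL2 at both stages.

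The direction of the stage difference turned just above Des, over a distance of 150 kb. In the 50 kb above the region PD12 cover was 24.6 kb and adult cover 13.2 kb, and in the following 50 kb they were 18.2 and 12.6 kb. Between 100 and 150 kb above it they were 20.8 and 5.2 kb, and between 150 and 200 kb they were nearly equal at 4.8 and 5.0 kb. Below the region the adult cover was the longer in each of the 4 steps of 50 kb, with 6.4 kb against none in the nearest. The first PD12 domain above the region, at 75400400 to 75408399, lay 15.4 kb from its upper end. With the region widened by 50 kb on each side, the ratio fell to 1.32, close to that of the whole lists.

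The ends of the domains were compared across the genome, a comparison chosen after the positions were seen. After gaps of up to 5 kb were joined within each stage, 5153 stretches paired 1 to 1 between stages, those of the 3 genes among them. The larger of the 2 shifts in the ends had a median of 2.6 kb (interquartile range 1.2 to 5.4). It was 0.8 kb for Acta2, 1.4 kb for Myh11 and 8.0 kb for Des. Shifts as small were found in 17.4% of pairs for Acta2 and 31.5% for Myh11. An adult stretch reaching as far beyond a PD12 end as at Des was found in 10.1% of pairs. The Acta2 shift lay below the interquartile range of all pairs, that of Myh11 within it and that of Des above it.

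**Figure D4:**
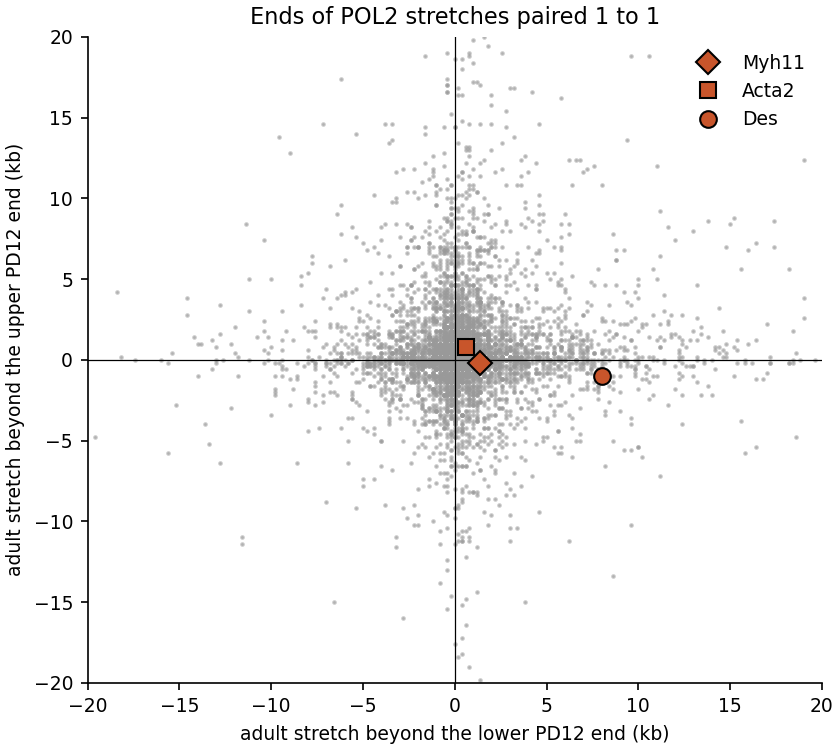
Distance in kb by which the adult POL2 stretch reaches beyond the lower (x axis) and the upper (y axis) end of the PD12 stretch it pairs with, for 5071 of the 5153 pairs, the other 82 lying beyond the axes of 20 kb. Negative values are adult ends inside the PD12 stretch. Acta2 and Myh11 lie near the origin and Des lies at 8.0 and -1.0 kb.

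FOXA2 intervals were few in the 3 regions. At PD12 none was listed in any of them. In the adult the Myh11 region had none, the Acta2 region had 1 and the Des region had 1. Among windows of the same lengths with adult POL2, the centre of an adult FOXA2 interval was held by 57.1% (130 kb), 37.9% (60 kb) and 32.1% (45 kb), and that of a PD12 interval by 7.83%, 4.44% and 3.66%. A count of 2 regions of 3 with adult FOXA2 and none with PD12 FOXA2 is near these shares.

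The Acta2 FOXA2 interval lay inside the POL2 domains of both stages. It ran from 34318493 to 34318933 and was 441 bp wide, and 93.5% of adult FOXA2 intervals were as wide or wider. Its start was 6.69 kb from the lower end of the adult POL2 domain, and its end was 12.9 kb from the upper end. Among all 10373 adult FOXA2 intervals, 10.1% (95% interval 9.55 to 10.7) lay in domains of PD12 and adult POL2 alike. The next adult FOXA2 interval was 89.7 kb away, and the nearest PD12 one 2899.36 kb away.

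The Des FOXA2 interval lay in the part of the region that POL2 covered in the adult alone. It ran from 75356546 to 75357212, 667 bp wide against a median of 685 bp in its list. The adult POL2 domain began 3.55 kb below it and ended 9.99 kb above it, whereas the PD12 domain began 3.79 kb above it. Of all adult FOXA2 intervals, 9.27% (8.72 to 9.85) lay in an adult POL2 domain and in no PD12 one. Because the uterus was taken whole, FOXA2 and POL2 at the same position need not come from the same cells, and the listed intervals do not show which cells carry either.

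Just outside the Des region FOXA2 was listed at both stages. A PD12 interval at 75334415 to 75334718 lay 5.28 kb below it, inside an adult interval at 75334339 to 75335160, and neither was in a POL2 domain. This shared site was 21.4 kb from the adult interval of the Des region, and the widened region would count it. Over the whole adult list 5.65% of FOXA2 intervals overlapped a PD12 interval, and both adult intervals within the regions did not.

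The Myh11 region was the one long POL2 stretch of the 3, and it held no FOXA2 interval of either stage. Of the 197 stretches of 55.8 to 223.2 kb, 62.4% held an adult FOXA2 interval and 74 (37.6%, 30.8 to 44.7) held none. The nearest adult FOXA2 interval, at 14162399 to 14163722, was 1324 bp wide and lay 6.28 kb below the region, in the adult-only POL2 domain of 2.8 kb described above. On the other side the nearest was 61.3 kb away. At PD12 the nearest FOXA2 interval above the region was 1658.65 kb away.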

How the data were processed

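Per the labels' protocols, chromatin of whole uterus was fixed with formaldehyde, sonicated and precipitated with a goat antibody to FOXA2 or a rabbit antibody to serine 2-phosphorylated POL2. Per the submitters' processing notes, BWA was used. No peak caller, threshold, control or genome build is given in the sources that were used here. Per the file headers, the deposited lists of the authors hold chromosome, start and end, without score, so the depth and precision of each library are unknown. Positions were counted as inclusive, and an overlap was at least 1 bp. Covered length was clipped to each region. Shares have exact (Clopper-Pearson) 95% intervals, which cover counting error alone. Calls used a fold of 1.5 in cover, without a test. POL2 starts lie on a grid of 200 bp.

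The genes, regions and comparisons were chosen with earlier results of these data known. Named were the 3 genes, all their intervals and their neighbours in the GRCm38 gene table, used for names and order alone. Planned lists of other smooth muscle genes and of cell type markers were not run, because an annotation of the files' build was not used here. The cell types behind the POL2 cover were therefore not checked by their markers. Calculations were tested on simulated lists. Python 3.11.15, numpy 2.4.6, pandas 2.3.3, scipy 1.17.1 and matplotlib 3.10.9 were used.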

Additional observations from a re-analysis of the deposited data

How the results depend on the processing

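Over 16 results and 61 alternatives, 49 values stayed within 1.5 times the reported value (shares of bases within their 95% interval) and 12 moved beyond it. Some of the 49 were fixed in advance. A FOXA2 count of 0 stays 0 in a part of the region or of the list. The Myh11 ratio could not rise 1.5 times within its region, since 81.5% of it was covered at PD12. The tally is therefore not a measure of how firm the results are. A change of direction could be called only for a ratio of at least 1.5 fold, which was the Des ratio alone, and it did not change direction. The windows moved along by 50% of their length and those with at least 90% of the PD12 cover of a region were chosen after the data were seen. In the latter the share of windows with an adult cover of at least 1.5 times PD12 was 0.0%, 7.83% and 18.6% for the Myh11, Acta2 and Des lengths, in place of 48.2%, 49.0% and 49.0%. The 0.0% was fixed in advance, since a window of the Myh11 length with that much PD12 cover cannot reach the fold. All the latter windows also leave out those without PD12 POL2, which pass the fold by definition. Selecting windows for long PD12 cover, by which the ratio divides, lowers these shares by itself. The Myh11 ratio lay between 1.01 and 1.22. The Acta2 ratio was 1.08 under every alternative run, but the layout fixed this. A single domain per stage lay in the central 50% of that region, and no other POL2 was listed within 200 kb. Each alternative therefore measured the same domains of 18.6 and 20 kb. The Des ratio of 3.11 was 1.97 in the central 50% of the region and 1.32 with 50 kb added on each side, since these leave out the second adult domain or take in PD12 domains above it. With 50 kb added, FOXA2 intervals numbered 1 in the adult at Myh11, 1 at PD12 and 2 in the adult at Des. Both adult FOXA2 intervals, at Acta2 and Des, were absent (0) from the wider 50% of the list and from the adult list reduced to its widest intervals, by their widths. No paired analysis was possible because no group holds more than 1 library. The planned cover of other smooth muscle genes and marker lists was not run. Read depth is unknown and sets how much of a region is listed, which limits all values of cover.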
